A study of Mus musculus with 22 samples.

Results

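The NR4A, EGR and IER genes Nr4a1, Nr4a2, Nr4a3, Egr1, Egr2, Egr3, Ier2 and Ier3 were followed in mpkCCD cells, an immortalised line from the mouse cortical collecting duct. They were picked by symbol, and all 8 were found among the 55415 lines of the expression table, each on 1 line. Expression was given as TPM, a length-corrected transcript abundance scaled to the same total in every library. The cells, of the secondary clone 38 of mpkCCDc11, grew on permeable supports and were kept in a medium without serum or growth factors but with dexamethasone, selenite and transferrin, which all groups shared.

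The 22 libraries formed 10 groups. Unsorted wild-type (WT) cells without dDAVP (controls) and with dDAVP had 3 libraries each. The other 16 libraries came from GFP reporter lines named C1, C11, C43 and C50, each under dDAVP. From each line, cells negative and cells positive for GFP gave 2 libraries apiece. dDAVP (desmopressin) is an agonist of the vasopressin V2 receptor. The labels name several doses and durations and do not assign them to libraries, so neither is used here. The growth protocol also mentions forskolin, a direct activator of adenylyl cyclase, but no library's title or treatment label names it. Controls are labelled as untreated, while the protocol speaks of vehicle. They do not say what drives GFP, and each line is described only as a named reporter cell. Nothing in the labels says that replicates were separate cultures, so p-values measure the spread between these libraries, which may be technical.

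Immediate early genes are transcribed within minutes of a stimulus, without new protein synthesis, mostly through factors already bound at their promoters. CREB, phosphorylated by protein kinase A when cyclic AMP rises, acts at the cyclic AMP response element (CRE), and serum response factor with ELK cofactors acts at the CArG box. The vasopressin V2 receptor of principal cells, the water-reabsorbing cells of the collecting duct, raises cyclic AMP. Nr4a1 (Nur77), Nr4a2 (Nurr1) and Nr4a3 (NOR-1) encode orphan nuclear receptors, Egr1 to Egr3 encode zinc-finger transcription factors, Ier2 encodes a small nuclear protein, and Ier3 (IEX-1) encodes a protein linked to cell survival.

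RefSeq promoter windows on GRCm38.p6 were matched for 5 of the 8 genes, and 4 are shown here because they carry the motifs searched for. Each is printed 5′ to 3′ on the gene's strand, from 250 bases before the RefSeq start up to that start or to the first annotated exon base. Capitals mark the CRE core TGACG (or CGTCA on the other strand) and the CArG box. The Nr4a1 window is chr15:101266596-101266845 (+), the Nr4a2 window chr2:57124004-57124253 (-), the Nr4a3 window chr4:48045055-48045152 (+) and the Egr2 window chr10:67537619-67537868 (+).
Nr4a1: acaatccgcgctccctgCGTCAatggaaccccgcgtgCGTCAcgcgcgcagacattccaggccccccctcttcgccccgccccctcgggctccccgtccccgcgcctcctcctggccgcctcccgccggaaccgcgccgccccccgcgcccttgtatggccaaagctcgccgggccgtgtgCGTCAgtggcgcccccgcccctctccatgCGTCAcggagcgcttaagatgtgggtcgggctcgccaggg
Nr4a2: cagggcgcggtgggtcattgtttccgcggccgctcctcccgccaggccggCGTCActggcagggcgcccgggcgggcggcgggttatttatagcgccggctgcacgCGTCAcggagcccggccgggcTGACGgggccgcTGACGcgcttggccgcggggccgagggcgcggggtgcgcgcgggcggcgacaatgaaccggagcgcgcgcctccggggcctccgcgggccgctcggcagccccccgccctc
Nr4a3: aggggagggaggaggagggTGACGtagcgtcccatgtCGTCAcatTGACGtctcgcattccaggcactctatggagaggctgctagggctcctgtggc
Egr2: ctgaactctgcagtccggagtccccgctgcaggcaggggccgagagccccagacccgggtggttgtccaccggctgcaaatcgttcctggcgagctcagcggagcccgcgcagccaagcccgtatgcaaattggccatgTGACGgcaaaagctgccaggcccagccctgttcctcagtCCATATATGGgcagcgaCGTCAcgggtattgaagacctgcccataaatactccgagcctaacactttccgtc

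In the full 250 bases, Nr4a1, Nr4a2 and Nr4a3 each held 4 CRE cores. Over the 250-base windows of 27025 genes, taking 1 window per gene, the first listed, 17.86% held at least 1 CRE core and 0.15% held 4 or more. Egr2 has 5 listed starts. The printed window held 2 CRE cores and 1 CArG box, as did the overlapping windows of 2 further starts, while the window starting at 67535249 held neither motif and that at 67537316 held a CArG box alone. A CArG box was found in 1.4% of genes by their first listed window, which for Egr2 is the one starting at 67535249 with neither motif. The full CRE, TGACGTCA, was found in 1.62% of genes and in none of the 5 genes' windows. The Ier3 window, chr17:35821463-35821683 (+), held neither motif. A match of letters is a description of the sequence and not a measured binding site.

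By Ensembl identifier in GENCODE M21 (GRCm38), Nr4a1 lies at chr15:101254269-101274795 (+), Nr4a2 at chr2:57106830-57124003 (-) and Nr4a3 at chr4:48045153-48086447 (+). Egr1 lies at chr18:34859823-34864984 (+), Egr2 at chr10:67535475-67542188 (+) and Egr3 at chr14:70077203-70082614 (+). Ier2 lies at chr8:84661331-84662852 (-) and Ier3 at chr17:35821684-35822923 (+). The values below cover the whole gene and do not separate transcripts with different starts.

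Of 12 principal cell markers, 9 had a mean TPM of at least 1. Aqp2, the vasopressin-regulated water channel, was at 64.1 to 74.9 TPM in controls and at 2759 to 3025 TPM in dDAVP-treated WT cells. Several defining markers were low, with Elf5 at no more than 0.31 TPM and Scnn1b at no more than 0.82 TPM in any library. Of the intercalated cell markers only Atp6v1b1 had a mean TPM of at least 1, at 19.4 to 110 TPM. The summed proximal tubule markers reached 16.2 TPM, with Lrp2 at up to 15.9 TPM. The summed leukocyte markers reached 13.1 TPM, with Cd68 at up to 12.4 TPM. The summed fibroblast and endothelial markers stayed at or under 1.58 TPM. The GFP transcript was at 0 to 0.79 TPM in WT cells, 5.31 to 17.6 TPM in GFP-negative and 1065 to 1567 TPM in GFP-positive libraries. Genes detected above 0 TPM ranged from 17177 to 31292 and fell into a set of 10 libraries with at most 20250 and a set of 12 with at least 23135. No 2 libraries held identical values.

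Replicate 1 of the C50 GFP-negative fraction stood apart from replicate 2. Nr4a1 was at 752 TPM in replicate 1 and at 2102 TPM in replicate 2, a ratio of 2.80. Egr1 was at 710 and 1904 TPM, a ratio of 2.68, and Egr3 at 8.28 and 17.4 TPM, a ratio of 2.11. Egr2 and Nr4a2 followed with ratios of 1.91 and 1.67, whereas Ier3, Ier2 and Nr4a3 differed by 1.19, 1.18 and 1.04 times. On log2(TPM + 1), the Nr4a1 gap was 1.48, and the gap between replicates was at most 0.27 in the other 7 clone fractions. The gap of Egr1 was 1.42, against at most 0.40 elsewhere.

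The difference between these libraries was not limited to the immediate early genes. The median gene was 0.36 higher in replicate 2 on the log2 scale, and 20.3% of 13243 genes differed by at least 1. In absolute size, the Nr4a1 and Egr1 gaps were larger than those of 93.6% and 92.6% of genes, and the Nr4a3 gap was larger than that of 6.86% of genes. The gap grew with transcript length, from a median of -0.06 in the 3268 genes with the shortest transcripts to 0.73 in the 3267 with the longest. Ribosomal protein genes held 8.32% of the TPM in replicate 1 and 3.85% to 6.12% in the other 21 libraries. Their part in the gaps of the immediate early genes was not tested. Values without this library stand beside the tests of the 8 genes and the list counts below.

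**Figure D1:**
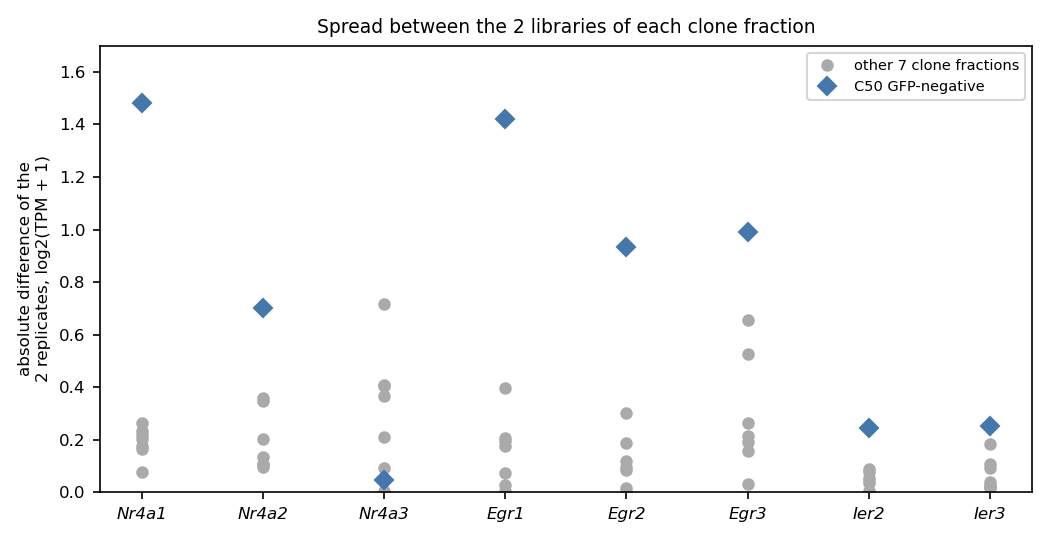
Absolute difference between the 2 libraries of each clone fraction on log2(TPM + 1), per gene. Diamonds are the C50 GFP-negative fraction and grey points the other 7 fractions. The diamonds for Nr4a1 (1.48) and Egr1 (1.42) lie far above all grey points, and that of Nr4a3 lies among them.

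Levels differed widely between the 8 genes. Ier2 was the most abundant, with a mean of 3725 TPM over the 22 libraries, rank 11 of 54514 entries. Nr4a1 followed at 2181 TPM (rank 34) and Egr1 at 1849 TPM (rank 42). Ier3 averaged 596 TPM and Egr2 302 TPM. Nr4a2, Egr3 and Nr4a3 were far lower, at 35.4, 16.5 and 5.38 TPM. The summed level of the 8 genes ran from 5155 TPM in C50 GFP-negative replicate 1 to 12597 TPM in C50 GFP-positive replicate 1.

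**Figure D2:**
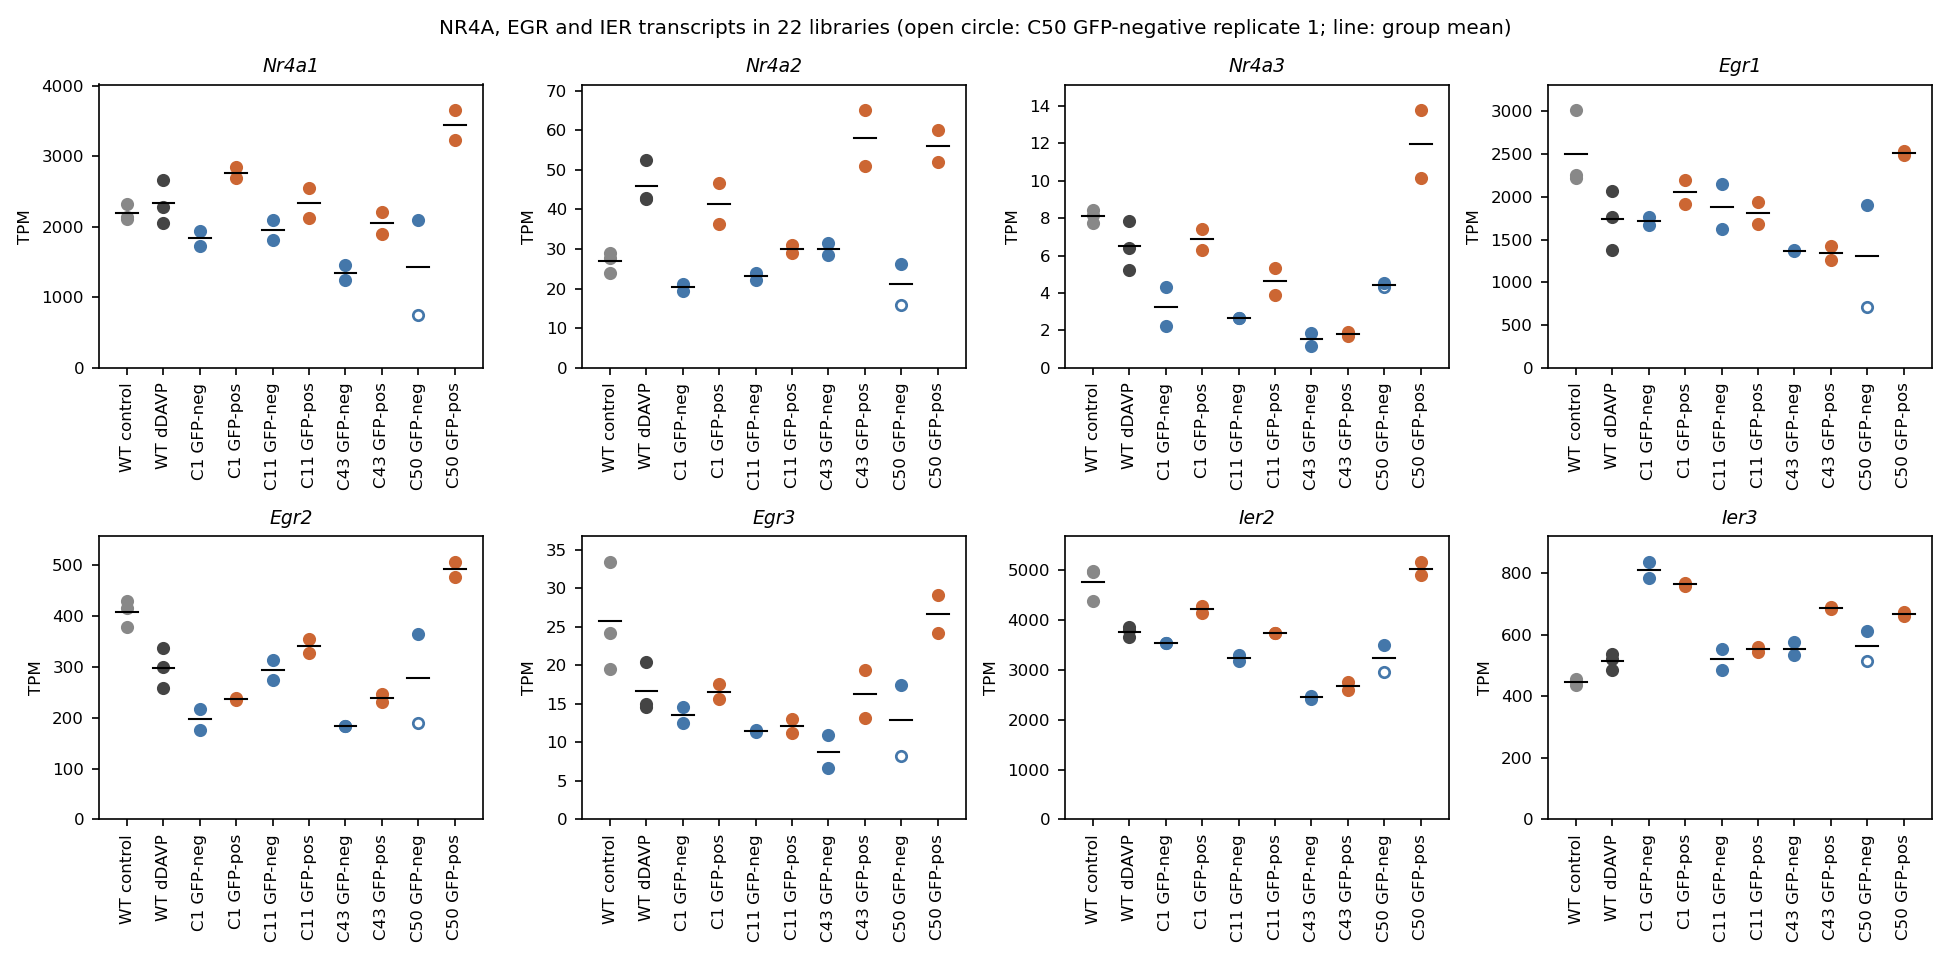
TPM of each gene in all 22 libraries by group, with a line at the group mean and an open circle for C50 GFP-negative replicate 1. The C50 GFP-positive group has the highest mean for Nr4a1, Nr4a3, Egr1, Egr2, Egr3 and Ier2, and Ier3 is highest in C1.

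Ordered by group mean, the C50 GFP-positive fraction was highest for 6 of the 8 genes. The exceptions were Nr4a2, highest in the C43 GFP-positive fraction, and Ier3, highest in the C1 GFP-negative fraction. For Egr1, Egr3 and Ier2, the C50 GFP-positive libraries overlapped those of the WT controls, the group with the next highest mean. The Egr1 means were 2507 and 2493 TPM, and the highest Egr1 library was a control at 3010 TPM. The C43 GFP-negative fraction was lowest for 5 genes, namely Nr4a1, Nr4a3, Egr2, Egr3 and Ier2. Highest and lowest group means differed 7.87-fold for Nr4a3, 3.03-fold for Egr3, 2.85-fold for Nr4a2 and between 1.81-fold (Ier3) and 2.69-fold (Egr2) for the rest. Most neighbours in these orders overlapped in their libraries. Of 9 neighbouring pairs, 7 overlapped for Nr4a1, Nr4a2 and Egr1, 8 for Egr3, 6 for Egr2, 5 for Nr4a3, 4 for Ier3 and 3 for Ier2.

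The first comparison set dDAVP against control in WT cells. Nr4a2 rose, Egr2 and Ier2 fell, and the other 5 genes did not pass the test. Nr4a2 was at 29.0, 24.1 and 27.6 TPM in the controls and at 42.7, 52.4 and 43.01 TPM with dDAVP. All 3 treated libraries lay above all 3 controls. The change was 0.75 on the log2 scale (SE 0.115, limma adjusted p = 0.0122), and the mean went from 26.9 ± 2.54 to 46.0 ± 5.51 TPM (SD, n = 3 each).

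The close relatives of Nr4a2 did not follow it past the threshold. Nr4a1 was at 2328, 2115 and 2144 TPM in controls and at 2060, 2671 and 2276 TPM with dDAVP, and the groups overlapped. Its difference was 0.08, with a 95% interval from -0.15 to 0.32. Nr4a3 was at 8.45, 7.76 and 8.15 TPM in controls and at 5.24, 7.86 and 6.41 TPM with dDAVP, a difference of -0.30 (limma adjusted p = 0.238). Its groups overlapped through the second dDAVP library. Whether Nr4a2 responded differently from Nr4a1 was not tested.

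All 3 EGR genes had lower means with dDAVP, but only Egr2 passed the test. Egr2 was at 430, 416 and 379 TPM in controls and at 259, 338 and 299 TPM with dDAVP. Its groups did not overlap, and it fell by 0.45 on the log2 scale (SE 0.107, limma adjusted p = 0.0437). Egr1 was at 3010, 2214 and 2256 TPM in controls and at 1377, 2063 and 1767 TPM with dDAVP. Its groups did not overlap either, with a difference of -0.53 (SE 0.172, limma adjusted p = 0.0918). Egr3 was at 33.4, 19.4 and 24.2 TPM in controls and at 14.5, 20.4 and 14.98 TPM with dDAVP, and the groups overlapped (difference -0.58, SE 0.21, limma adjusted p = 0.116).

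The 2 IER genes differed in sign. Ier2 was at 4383, 4961 and 4985 TPM in controls and at 3854, 3805 and 3654 TPM with dDAVP, with all treated libraries below all controls. It fell by 0.34 on the log2 scale (SE 0.0704, limma adjusted p = 0.0313). Ier3 was at 437, 448 and 457 TPM in controls and at 536, 486 and 520 TPM with dDAVP, again without overlap. Its difference of 0.20 (SE 0.0641) did not pass the test (limma adjusted p = 0.0907).

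Of the 8 genes, 1 was called higher and 2 lower, where 8.88% of 13494 genes were called, 2.37% higher and 6.51% lower. Libraries did not overlap for 5 of the 8, against 35.8% of all genes. The median difference of the 8 was -0.32 and that of all genes -0.16. With libraries rescaled by median ratios, the median of all genes moved to 0.00 and 59.6% of calls were higher, against 26.7% as deposited. Egr2 (-0.28, limma adjusted p = 0.106) and Ier2 (-0.17, limma adjusted p = 0.476) were then no longer called, whereas Nr4a2 was. The Nr4a2 call was lost without control replicate 3 (0.77, limma adjusted p = 0.05). The Egr2 call was lost without any of control replicates 1, 2 and 3 or dDAVP replicates 1 and 3, and the Ier2 call without control replicates 2 and 3 or dDAVP replicates 1 and 3. Egr1 was called only without dDAVP replicate 2 (-0.66, limma adjusted p = 0.047) or with detected genes as a covariate (-0.59, limma adjusted p = 0.0216). Only 2 WT libraries were in the set with fewer detected genes; within the 4 others the differences were 0.82 for Nr4a2, -0.41 for Egr2 and -0.32 for Ier2, with no call.

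**Figure D3:**
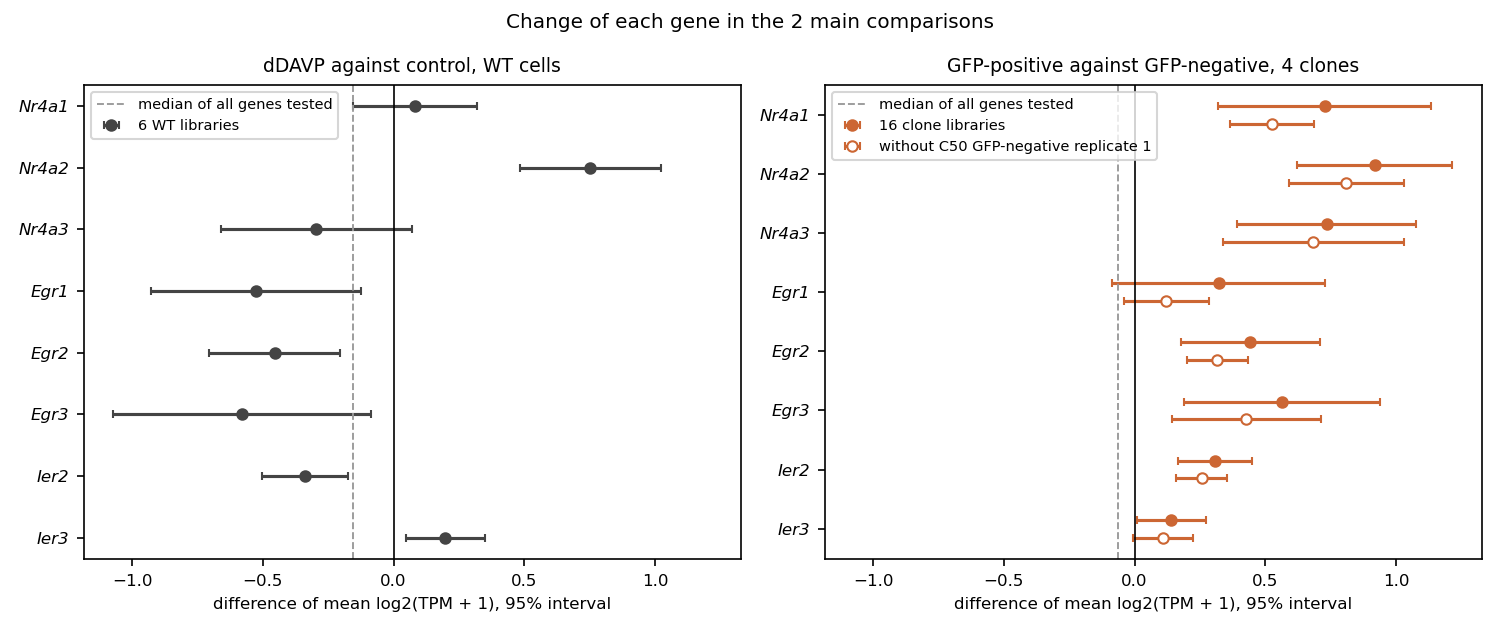
Difference in mean log2(TPM + 1) of each gene with its 95% interval, for dDAVP against control in WT cells (left) and GFP-positive against GFP-negative fractions over 4 clones (right; open points leave out C50 GFP-negative replicate 1). The dashed line is the median of all genes tested. Nr4a2 is the gene with the largest positive difference in both panels.

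The second comparison set the GFP-positive against the GFP-negative fractions of the 4 reporter clones, all under dDAVP, with clone as a covariate. Of the 8 genes 6 passed the test, and all 6 were higher in GFP-positive cells, while Egr1 and Ier3 did not pass. The background was 35.3% of 13113 genes called, 12.1% higher and 23.2% lower. The median difference of the 8 genes was 0.50 and that of all genes -0.06. Aqp2 was at 66.5 to 1680 TPM in the GFP-negative and at 2008 to 7254 TPM in the GFP-positive libraries. The summed principal cell markers, Aqp2 included, ran from 620 to 3031 TPM and from 3161 to 10796 TPM, and their part in the differences was not tested. In such bulk fractions, fewer cells with a transcript and less transcript per cell cannot be told apart.

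All 3 NR4A genes rose. Nr4a2 ranged from 15.8 to 31.5 TPM in GFP-negative libraries (median 23.1) and from 28.9 to 65.0 TPM in GFP-positive ones (median 48.8). It was higher in 8 of 8 pairs of libraries with the same clone and number, and both GFP-positive libraries lay above both GFP-negative ones in all 4 clones. For all genes these shares were 8.88% and 6.72%. Same-numbered libraries shared only a number, so pair counts can depend on the numbering. For pair counts below 8 no share of all genes was taken. The Nr4a2 change was 0.92 (SE 0.138, limma adjusted p = 0.000134), or 0.81 without C50 GFP-negative replicate 1 (limma adjusted p = 2.44e-05).

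Nr4a1 ranged from 752 to 2102 TPM in GFP-negative (median 1776, mean 1644 ± 469, SD, n = 8) and from 1903 to 3654 TPM in GFP-positive libraries (median 2624, mean 2653 ± 589, SD, n = 8). It was higher in 8 of 8 pairs, and in all 4 clones both GFP-positive libraries lay above both GFP-negative ones. The change of 0.73 (SE 0.19, limma adjusted p = 0.0078) was 0.53 without C50 GFP-negative replicate 1 (limma adjusted p = 5.99e-05). Nr4a3 ranged from 1.17 to 4.53 TPM (median 2.68) and from 1.73 to 13.8 TPM (median 5.82), and the fractions overlapped in C43. Its change of 0.73 (SE 0.16, limma adjusted p = 0.00235) was 0.68 without that library, and it was higher in 7 of 8 pairs.

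Among the EGR genes, Egr2 and Egr3 rose and Egr1 did not pass. Egr2 ranged from 177 to 365 TPM in GFP-negative (median 204) and from 231 to 507 TPM in GFP-positive libraries (median 287), and was higher in 8 of 8 pairs. Its change was 0.44 (SE 0.124, limma adjusted p = 0.0118), or 0.32 without C50 GFP-negative replicate 1. Egr3 ranged from 6.61 to 17.4 TPM (median 11.4) and from 11.3 to 29.1 TPM (median 16.6), with a change of 0.56 (SE 0.175, limma adjusted p = 0.0209), or 0.43 without that library. Egr1 ranged from 710 to 2144 TPM (median 1647) and from 1260 to 2530 TPM (median 1928), overlapped widely and was higher in 6 of 8 pairs. Its difference of 0.32 had a 95% interval from -0.09 to 0.73 and was 0.12 without that library (limma adjusted p = 0.212).

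Ier2 ranged from 2422 to 3539 TPM in GFP-negative (median 3245) and from 2600 to 5174 TPM in GFP-positive libraries (median 3953), and rose in 8 of 8 pairs. The change was 0.31 on the log2 scale (SE 0.0661, limma adjusted p = 0.00209), and 0.26 without C50 GFP-negative replicate 1. Ier3 averaged 612 ± 129 and 668 ± 81.2 TPM, with a difference of 0.14 (SE 0.0619, limma adjusted p = 0.093), or 0.11 without C50 GFP-negative replicate 1 (limma adjusted p = 0.115). It was called without C1 GFP-negative replicate 2 (0.17) and without clone C1 (0.22). Leaving out a clone ended the call of Egr2 without C43, and that of Egr3 without C43 or without C50.

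Without C50 GFP-negative replicate 1, 6 of the 8 were again called, and 46% of all genes. After median-ratio scaling, 51% of all calls were higher against 34.2% as deposited, and Egr1 (0.40, limma adjusted p = 0.0443) and Ier3 (0.22, limma adjusted p = 0.0296) were called too. With each clone's mean as the replicate, 3 of the 8 were called, the NR4A genes, and Egr2, Egr3 and Ier2 were not (limma adjusted p = 0.055, 0.0807 and 0.0849). Within the libraries with fewer genes detected only Nr4a2 was called, and within those with more, Nr4a1, Nr4a2 and Egr2.

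Within single clones the differences varied in size. In C1, Nr4a2 was at 19.5 and 21.1 TPM in GFP-negative and at 46.8 and 36.2 TPM in GFP-positive libraries, and it was the 1 gene called (0.99, limma adjusted p = 0.0175), where 7.22% of genes were called and 2.31% were called higher. In C11 none of the 8 was called, against 7.94% of genes (2.23% higher). An unadjusted limma p under 0.05 was found for 2 of the 8 and for 20.7% of all genes. The C11 values of Nr4a2 were 23.9 and 22.3 TPM in GFP-negative and 28.9 and 31.1 TPM in GFP-positive libraries. In C43, Nr4a2 (0.92, limma adjusted p = 0.0145) and Ier3 (0.31, limma adjusted p = 0.0485) rose, against 16.3% of genes called and 4.29% higher. Nr4a2 was there at 28.6 and 31.5 TPM in GFP-negative and at 50.9 and 65.0 TPM in GFP-positive libraries.

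In C50, 7 of the 8 genes rose, all except Ier3, against 26.6% of genes called and 12.8% higher. The changes were 1.45 for Nr4a1, 1.41 for Nr4a2, 1.24 for Nr4a3, 1.11 for Egr1, 0.90 for Egr2, 1.07 for Egr3 and 0.64 for Ier2. Nr4a1 was at 3654 and 3237 TPM in the C50 GFP-positive libraries, both above all other 20 libraries. Without GFP-negative replicate 1, the C50 GFP-negative fraction holds 1 library, and its spread comes from the other groups. No call is therefore read from it. The C50 changes were then 0.71 for Nr4a1, 1.06 for Nr4a2 and 1.21 for Nr4a3. Egr1 changed by 0.40, Egr2 by 0.43, Egr3 by 0.58 and Ier2 by 0.52.

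A clone fraction that loses a library holds 1, and its spread then comes from the other groups. Leaving out C50 GFP-negative replicate 1 also narrowed the shared spread and changed the calls of the other clones. In C1, Nr4a1, Nr4a2, Nr4a3 and Ier2 were then called, against 15.9% of genes. In C11 Ier2 was called (17.7% of genes), and in C43 Nr4a1, Nr4a2, Egr2, Egr3 and Ier3 (29.6% of genes). The same calls were gained when C50 GFP-negative replicate 2 was left out in its place, and Nr4a3 in C1 was also called without C1 GFP-negative replicate 2. The Nr4a2 calls within C1 and C43 were lost without C1 GFP-negative replicate 1 or 2 or GFP-positive replicate 1, and without C43 GFP-negative replicate 1 or 2 or GFP-positive replicate 2. The Ier3 call in C43 was lost on leaving out any library other than the C50 GFP-negative ones. The C50 calls of Egr1, Egr2 and Egr3 were each lost without either C50 GFP-positive library, that of Nr4a1 without replicate 1 and that of Nr4a3 without replicate 2.

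Egr1 within C11 and C43 differed by -0.05 and -0.03 and by 0.10 and 0.16 after median-ratio scaling, none of them called. Ier3 within C1 was at 784 and 837 TPM in GFP-negative and at 758 and 769 TPM in GFP-positive libraries, a difference of -0.09 that was 0.05 after a length and GC correction. The share of calls that were higher also moved with median-ratio scaling, from 32% to 46.1% in C1, from 28.1% to 48.8% in C11 and from 26.3% to 50.1% in C43.

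**Figure D4:**
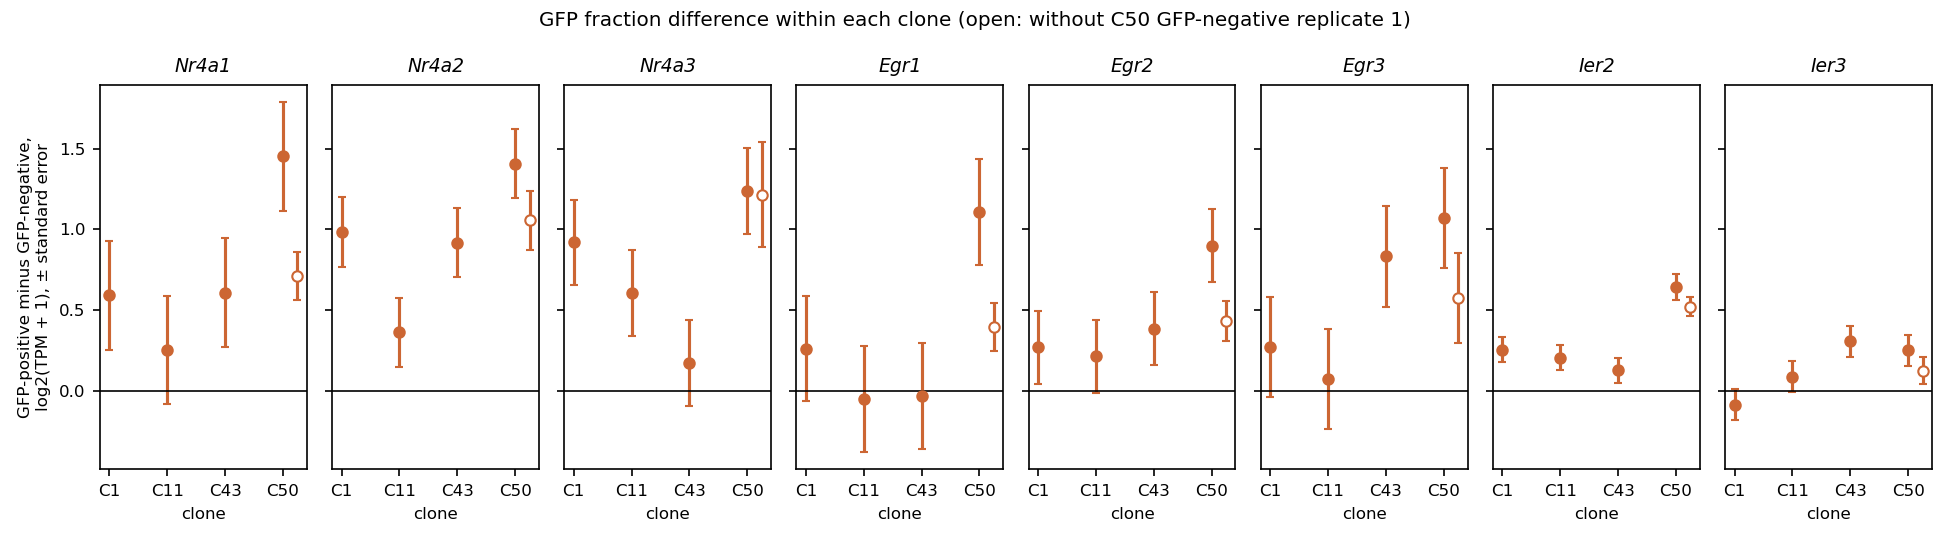
Difference between GFP-positive and GFP-negative fractions in log2(TPM + 1) within each clone, with its standard error, for the 8 genes; open points leave out C50 GFP-negative replicate 1. C50 shows the largest values for Nr4a1 (1.45) and Egr1 (1.11), and these drop to 0.71 and 0.40 in the open points.

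The test of whether the fraction difference itself differed between clones called 0 of the 8 genes, against 0.869% of genes. An unadjusted limma p under 0.05 was found for 2 of the 8 and for 12.9% of all genes. Ier2 had the lowest limma adjusted p of the 8, 0.137. The result was 0 of 8 again without C50 GFP-negative replicate 1, where Ier2 was at 0.0749 and 2.49% of genes were called. Without replicate 2 of that fraction, which leaves replicate 1 as its only library, 7 of the 8 were called, among 5038 genes in all.

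The clones differed in the level of several of the genes in a test over both fractions, which was not run within either fraction. The order of clones could change with the fraction. Egr2 was highest in C11 among GFP-negative groups (294 TPM) and in C50 among GFP-positive groups (492 TPM). The clone test called Nr4a3, Egr2, Ier2 and Ier3, 4 of the 8, against 28% of genes. Nr4a3 was lowest in C43, at 1.87 and 1.17 TPM in GFP-negative and at 1.73 and 1.91 TPM in GFP-positive libraries. It was highest in C50, at 4.35 and 4.53 TPM in GFP-negative and at 10.1 and 13.8 TPM in GFP-positive libraries. Ier3 was highest in C1, whose 4 libraries (758 to 837 TPM) lay above all others. Without C50 GFP-negative replicate 1, all 8 were called, and 44.8% of all genes.

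Both fractions were set against WT cells with dDAVP, 2 comparisons that share the 3 WT libraries. In GFP-negative cells Nr4a2 fell by 0.95 (limma adjusted p = 0.00117), Nr4a3 fell by 0.97 (limma adjusted p = 0.00526), Ier2 fell by 0.29 (limma adjusted p = 0.00348) and Ier3 rose by 0.23 (limma adjusted p = 0.0486). These 3 lower and 1 higher calls stand beside 5.94% of all genes, 3.21% lower and 2.74% higher. In GFP-positive cells 1 of the 8 was called, Ier3 (0.37, limma adjusted p = 0.00134), against 14.7% of genes called and 4.05% higher. Without C50 GFP-negative replicate 1, which enters this comparison only through the shared spread, Ier3 was again the 1 gene called (0.37, limma adjusted p = 0.000159), against 24.1% of genes. The other 7 differed from WT by -0.24 to 0.16, with Nr4a2 at -0.04 (0.05 after median-ratio scaling).

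In GFP-negative cells without C50 GFP-negative replicate 1, Nr4a2 (-0.87), Nr4a3 (-0.96), Ier2 (-0.26) and Ier3 (0.26) were again called, and Nr4a1 too (-0.38, limma adjusted p = 0.0224), against 11.6% of genes, and without replicate 2 so were Nr4a1, Egr1, Egr2 and Egr3. The Nr4a3 call was lost without WT dDAVP replicate 2 (-0.84), and the Ier3 call in GFP-negative cells without most single libraries. Of all calls in the GFP-positive comparison 27.6% were higher, and 47.8% after median-ratio scaling. With clone means as replicates none of the 8 was called in either comparison, and 10 and 239 genes were. Clone, reporter and separation of the fractions go together here and cannot be told apart.

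Other immediate early genes gave the setting, from a list of 46 that includes Fos, Jun, Atf3, dual-specificity phosphatases and Krüppel-like factors. Of the 44 tested, 4 rose and 9 fell with dDAVP in WT cells, against 2.37% and 6.51% of all genes. Their median of -0.14 was close to the -0.16 of all genes. Cebpd, a C/EBP transcription factor, rose most, from 3.41 ± 0.514 to 29.4 ± 1.39 TPM (2.79, limma adjusted p = 8.03e-05). Crem, which encodes CREB-related regulators, rose from 11.9 to 30.9 TPM (limma adjusted p = 0.0013), Rgs2, a regulator of G-protein signalling, rose by 0.75 and Cebpb by 0.45 on the log2 scale. Fosb fell by 0.83, Fos fell by 0.68 (4049 to 2527 TPM), Dusp1, a MAP kinase phosphatase, fell by 0.66 (1342 to 849 TPM), and Klf10 fell by 0.49. Rgs2 and Klf10 were each called in 7 of 14 alternatives and Cebpb in 8. All of these 3 calls were lost without control replicate 2, dDAVP replicate 1 or dDAVP replicate 3, and those of Rgs2 and Klf10 also without control replicate 1. After median-ratio scaling 6 of the 44 were higher and 3 lower, among 757 genes called in all. Klf10 was then not called (-0.32, limma adjusted p = 0.0643).

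In the GFP-positive fractions 16 of these 44 genes rose and 10 fell, against 12.1% and 23.2% of all genes, with a median of 0.16. Without C50 GFP-negative replicate 1 the counts were 17 and 12, with a median of 0.11. Then 65.9% of the list was called against 46% of all genes, and 38.6% was called higher against 13.4%. Cebpd rose by 1.42 (limma adjusted p = 5.12e-08), Sgk1, a kinase that raises sodium channel activity, by 1.08 (361 to 762 TPM, limma adjusted p = 2.03e-06), and Klf2 and Zfp36, an mRNA-decay factor, by 0.88 each. Dusp2, a nuclear MAP kinase phosphatase, fell by 2.33 (28.8 to 4.43 TPM, limma adjusted p = 3.95e-08), Gem fell by 1.31, Fosl1 by 0.76 and Ccn2, a secreted matrix protein, by 0.75. All 8 of these were also called without C50 GFP-negative replicate 1, the risers by 1.44, 0.99, 0.80 and 0.78 in the same order. Within the libraries with fewer genes detected 3 rose and 1 fell, among 250 genes called in all. With clone means as replicates 9 rose and 8 fell, among 2406, and after median-ratio scaling 23 rose and 9 fell, among 4679. Egr4, the remaining EGR gene, did not exceed 0.04 TPM in any library.

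**Figure D5:**
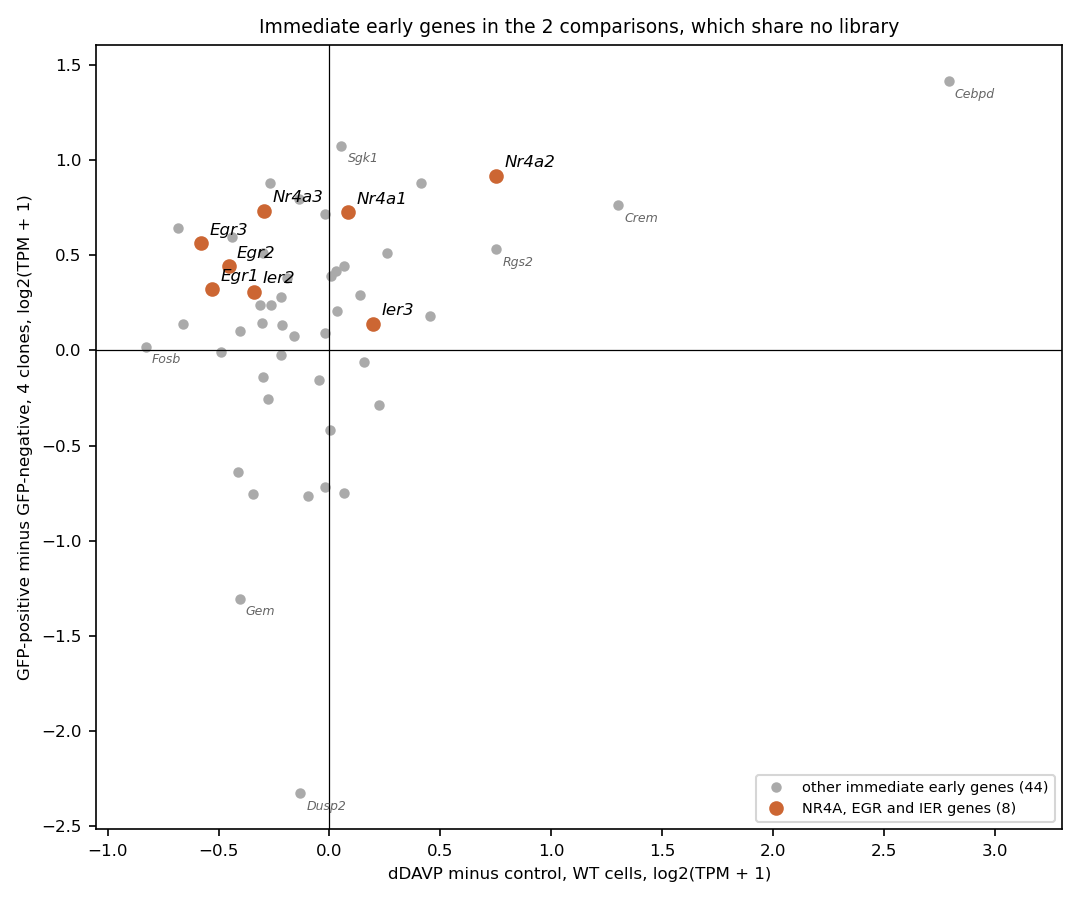
Difference in mean log2(TPM + 1) with dDAVP in WT cells (x axis) against the difference between GFP-positive and GFP-negative fractions (y axis), for the 8 genes and 44 other immediate early genes. Nr4a2 (0.75 and 0.92) lies in the upper right with Cebpd and Crem, and Egr2 and Ier2 lie in the upper left.

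The second list held 15 partners and upstream factors, such as the retinoid X receptors that pair with NR4A1 and NR4A2, CREB family members and their coactivators, the EGR corepressors Nab1 and Nab2, and cofactors of serum response factor. Of the 14 tested, 0 passed with dDAVP in WT cells by limma, against 8.88% of all genes. Of the 14, 6 had an unadjusted limma p under 0.05, as had 31% of all genes. In the GFP comparison 2 rose and 2 fell, 28.6% of the list against 35.3% of all genes, with a median of -0.18. The counts were 2 and 8, with a median of -0.27, without C50 GFP-negative replicate 1, 71.4% of the list against 46% of all genes. Without clone C50, 7 fell, among 5254 genes called in all. Rxra rose by 0.90 (limma adjusted p = 0.0214) and Crtc1, a CREB coactivator, by 0.35 (limma adjusted p = 0.0207). They were 0.62 and 0.26 without C50 GFP-negative replicate 1, both called. Without clone C1 neither was called (limma adjusted p = 0.0655 and 0.111); Rxra was called in 26 and Crtc1 in 24 of 30 alternatives. Elk3, a ternary complex factor, fell by 0.87 (limma adjusted p = 0.000291), and Atf1 fell by 0.42 (limma adjusted p = 0.00562), though not with clone means as replicates (limma adjusted p = 0.0619).

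The genes most like each of the 8 were found by Pearson r of log2(TPM + 1) over the 22 libraries among 13243 genes. The 8 genes themselves and genes with provisional symbols, such as Gm with digits, were passed over. The result is a description of libraries that share clones and treatment. For Nr4a1 they were Dcaf11 (r = 0.952), Esrp2 and Wsb1, and for Nr4a2 Arhgap4 (0.871), Zfand5 and Fzd4. For Nr4a3 they were Nudt13 (0.883), Tle2 and Galnt7. For Egr1 they were Btbd7 (0.931), Kank1 and Cry2, for Egr2 Pisd-ps1 (0.915), Tle2 and Slc40a1, and for Egr3 Anxa11 (0.865), Arhgap6 and Zmiz1. For Ier2 they were Junb (0.928), Clk3 and Rab15, and for Ier3 Slc25a20 (0.858), Etfa and Oaf. Without C50 GFP-negative replicate 1 the r of each of these with its gene lay between 0.808 and 0.944. Junb was on the list of other immediate early genes.

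Among the 8 genes themselves, Nr4a3 and Ier2 had the highest r over the 22 libraries (0.911, and 0.927 without C50 GFP-negative replicate 1), but their deviations from the group means had r = -0.046. Nr4a1 and Egr1 had r = 0.83, and 0.685 without that library. Their deviations from the group means had r = 0.943, and 0.801 without both C50 GFP-negative libraries. Nr4a2 and Ier2 had r = 0.146, and 0.069 without it. Ier3 had r between -0.378 and 0.217 with the other 7, and between -0.446 and 0.17 without it.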

How the data were processed

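The 22 libraries were placed in 10 groups from the sample titles. Per the labels' protocols, cDNA was made with the SMART-Seq HT kit, Nextera XT libraries were prepared and sequencing was paired-end. Per the submitters' processing notes, STAR and RSEM were used. The genome build and annotation are not given in the sources used here. The authors deposited TPM, scaled to one fixed total per library, for 55415 lines. Lines sharing a symbol were summed, and the 1399 lines with a blank symbol were kept under their Ensembl identifiers. This left 54514 entries. The deposited table also holds group means, a ratio of means for each comparison and a column with the highest signal of each line (1 column); none of these was used. TPM keep no depth, so the depth of each library is unknown and no counting interval was given.

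Tests used limma 3.58.1 in R 4.3.3 on log2(TPM + 1), a pseudocount of 1 chosen here on the deposited TPM, where the mean TPM in the fit reached 1, with a mean-variance trend. Two-sided p-values were corrected over all genes tested (Benjamini-Hochberg), and an adjusted p under 0.05 was called. The dDAVP test used 6 libraries, the GFP tests the 16 clone libraries with clone as a term or with 1 mean for each fraction of each clone, and the comparisons with wild-type cells 19 libraries. The code was tested on simulated data.

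The genes and lists were chosen with earlier results of these data known. Beyond the 8 genes, the text names from each list of other genes at most the 4 strongest called in each direction. For each of the 8 it also names the 3 genes outside the 8 of highest Pearson r with it, passing over provisional symbols. Genes singled out otherwise are said to be. Alternatives changed the pseudocount, filter, scaling, covariates, replicates, clones and unit of replication.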

Additional observations from a re-analysis of the deposited data

Results flagged for a closer look

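None of the 8 genes was called by limma's test of whether the fraction difference differs between clones, 2 of the 8 had an unadjusted limma p under 0.05 (12.9% of all genes), and 7 were called, among 5038 genes, without C50 GFP-negative replicate 2. Of the 69 listed genes around them 2 were called with all libraries, against 0.869% of all genes. Without C50 GFP-negative replicate 1 there were 8, both of the 2 among them, against 2.49% of all genes. Ccn2 had a limma adjusted p of 0.0299, and of 0.000826 without that library. It was at 3301 and 3181 TPM in GFP-negative and at 3171 and 3327 TPM in GFP-positive libraries of C1, a difference of 0.00. In C11, C43 and C50 it fell by 0.89, fell by 1.18 and fell by 0.94. Hspb1, a small heat shock protein gene, had a limma adjusted p of 0.0222, and of 0.0133 without that library. It fell in every clone, by 1.26 in C1, by 0.91 in C11, by 0.98 in C43 and by 2.41 in C50. In C50 it was at 112 and 79.9 TPM in GFP-negative and at 15.5 and 18.6 TPM in GFP-positive libraries, and the higher GFP-negative value is that of replicate 1, which stands apart in other genes.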

How the results depend on the processing

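Over all alternatives, 1658 of 1815 values of single genes among the 8 kept their side of the threshold, 98 lost a call, 59 gained one and none was a call of opposite sign. Nr4a2 between GFP fractions was called in 30 of 30 alternatives (0.65 to 1.33) and with dDAVP in 11 of 14 (0.66 to 0.98). Nr4a1 between fractions was called in 29 of 30, Egr2 and Ier2 in 27 of 30 and Egr3 in 24 of 30. With dDAVP in WT cells, Egr2 was called in 4 of 14 and Ier2 in 5 of 14. Counts of all genes called, and of the 8, moved as follows.

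Leaving out 1 library at a time, the dDAVP comparison called 314 (without control replicate 3) to 2038 genes (without dDAVP replicate 2), where all libraries gave 1198, with 0 to 1 of the 8 higher and 0 to 3 lower. The GFP comparison ranged from 4170 to 6043 genes (4626) with 6 to 7 of the 8. Within clones the ranges were 377 to 2094 for C1 (947; 0 to 4 of the 8), 318 to 2331 for C11 (1041; 0 to 1), 858 to 3891 for C43 (2134; 0 to 5) and 1793 to 6820 for C50 (3486; 3 to 8). The interaction called 42 to 5038 genes (114; 0 to 7 of the 8) and the clone test 2744 to 5889 (3669; 4 to 8). GFP-negative clones against WT gave 277 to 2195 genes (784; 0 to 1 of the 8 higher, 2 to 7 lower), and GFP-positive clones 1077 to 3184 (1934; 1 of the 8 higher).

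With all genes above 0 tested, calls were 442 for dDAVP (0 of the 8 lower), 609 in C1 (0 of the 8), 607 in C11, 1346 in C43 (1 of the 8), 2291 in C50 and 461 for GFP-negative clones against WT (0 higher). A pseudocount of 0.1 left 1 of the 8 called in C43 and 0 higher in GFP-negative clones against WT. Median-ratio scaling gave 757 dDAVP calls (0 of the 8 lower), 2 of the 8 in C1, 4 in C43 and 0 higher in GFP-negative clones against WT. The detected-genes covariate gave 2554 dDAVP calls (2 of the 8 higher) and 0 higher in GFP-negative clones against WT. Within the libraries with more genes detected, dDAVP gave 101 calls (0 of the 8 in each direction) and the GFP comparison 3 of the 8. Within those with fewer, the GFP comparison gave 250 calls (1 of the 8), and the dDAVP comparison could not be fitted. Clone means as replicates gave 2406 GFP calls (3 of the 8), and 10 and 239 calls against WT (0 of the 8 in each). A transcript length and GC correction, chosen after seeing the data, gave dDAVP 2 of the 8 higher and 0 lower, 2 of the 8 in C1, 1 in C11 and 6 in C43. It gave 258 interaction calls, 1292 calls in GFP-negative clones against WT (5 of the 8 lower) and 2 of the 8 higher in GFP-positive clones. The cause of these shifts was not tested.

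Same-numbered replicates shared only a number. The mean correlation of their deviations was -0.115 in WT cells, where 0 of 6 libraries correlated best with their own number, and 0.0909 in the clones. With the replicate number as a block, dDAVP gave 122 calls (0 of the 8 higher, 0 lower), and the GFP comparison kept 6 of the 8.

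Of the 44 other immediate early genes, 4 rose and 9 fell with dDAVP as deposited. They were 2 and 4 with all genes tested, 9 and 6 after the length and GC correction, 5 and 14 with the covariate, 2 and 1 under the block, and 2 and 0 within the libraries with more genes. Leaving out single WT libraries gave 2 to 4 higher and 3 to 10 lower. Between GFP fractions 16 rose and 10 fell as deposited, and 24 rose and 9 fell after the length and GC correction.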

Other observations

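Heat shock genes, which are also induced quickly by cell stress, were listed apart. Of the 11 tested, 1 passed with dDAVP in WT cells, Dnajb1, a co-chaperone gene, which fell by 0.38 (limma adjusted p = 0.0194). This 9.09% of the list stands beside 8.88% of all genes. Dnajb1 was called in 4 of 14 alternatives: it was lost without any 1 of control replicates 1, 2 and 3 or dDAVP replicates 1 and 3, with all genes above 0 tested, with the replicate block, within the libraries with more genes detected, after median-ratio scaling (-0.21) and after the length and GC correction (-0.12, limma adjusted p = 0.412). In the GFP-positive fractions 3 rose and 6 fell, 81.8% of the list against 35.3% of all genes, with a median of -0.26. Without C50 GFP-negative replicate 1, 3 rose and 7 fell, 90.9% of the list against 46% of all genes, with a median of -0.23. With clone means as replicates 1 rose and 4 fell, among 2406 genes called in all. Within the libraries with fewer genes detected 1 rose and 0 fell, among 250. Dnajb1 rose by 0.77 (167 to 282 TPM, limma adjusted p = 1.96e-07), Hspa1b by 0.50 and Hspa5, a chaperone of the endoplasmic reticulum, by 0.42. Hspa1b was called in 22 and Hspa5 in 25 of 30 alternatives, and Hspa1b was lost without either C50 GFP-positive library. The changes without C50 GFP-negative replicate 1 were 0.73 for Dnajb1, 0.34 for Hspa1b and 0.29 for Hspa5, all called. Hspb1 fell by 1.39, Hsph1 by 1.05, and the mitochondrial chaperones Hspe1 and Hspd1 fell by 0.65 and fell by 0.38. Hspd1 was called in 25 of 30 alternatives, and was lost without clone C1, C11 or C43, with clone means as replicates and within the libraries with fewer genes detected.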
